A study of Mus musculus with 12 samples.

Results

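Bone morphogenetic protein (BMP) signaling was followed through 9 genes: the ligands Bmp2 and Bmp4, the secreted inhibitors Mgp and Grem1, the intracellular inhibitors Smad6 and Smad7, and the target genes Id1, Id2 and Id3. They were chosen by name, as 9 of the 16475 probe sets tested, after the RSL response of the inducible clone had been seen, above all the higher Mgp value in its arrays labelled RSL. That contrast is therefore given for these genes as a description, without a test. The tests reported for them use other contrasts: RSL against DMSO in parental cells, and the clone against parental cells averaged over both treatments. The latter takes in the same clone arrays, and earlier results of these data were known when the genes were chosen. Another 55 genes of the pathway, of 63 listed, had a named probe set and were tested in every contrast.

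The data came from 12 Affymetrix arrays of NIH 3T3 cells, a mouse embryonic fibroblast line, in 4 groups of 3 arrays. NIH 3T3-RheoSwitch-Ier2 cells are 1 clone (3T3-ind-IER2 #11) that carries mouse IER2, an immediate early gene, under the RheoSwitch system, in which the ligand RSL-1 (hereafter RSL) turns on the gene. The clone and the parental NIH 3T3 cells each received 200 nM RSL or a matching volume of the solvent DMSO and were harvested after 24 h, and the shared culture protocol lists G418 and hygromycin in the medium of both. Since the arrays hold a single clone, the effect of its plasmids and that of clonal selection cannot be told apart in them. The parental arrays, whose labels name no switch, are the control for RSL itself. In the clone, an effect of RSL through the proteins of the switch cannot be told apart from one through IER2.

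Values are log2 expression, quantile normalized by the authors, so that a difference of 1 is a doubling of the reading. Arrays of 1 group correlated at 0.9981 to 0.9992 across probe sets, and arrays of different cells at 0.9913 to 0.9932. All 10 fibroblast markers lay above the first quartile of every array, at a mean of 10.50 to 10.79, while markers of macrophages, epithelium and endothelium averaged 6.04 to 6.43, near the first quartile of 6.23 to 6.30. None of the fibroblast, macrophage, epithelial, endothelial, cartilage and bone or smooth muscle markers passed the test for RSL in either cell line. The probe set of Ier2 read 9.07, 9.04 and 8.96 in the clone labelled DMSO and 8.50, 8.48 and 8.66 in the clone labelled RSL, a fall of 0.47 (standard error 0.05, adjusted p = 4.6e-05 from limma). This is opposite to the switch that the labels name. The clone labelled DMSO was also above parental cells with DMSO, by 0.45 (standard error 0.05, adjusted p = 3.2e-06 from limma). The clone labelled RSL, at a mean of 8.55, overlapped parental cells with DMSO, at 8.58. In parental cells Ier2 was 0.17 higher with RSL, which did not pass (adjusted p = 0.366 from limma). The highest Ier2 readings were thus in the clone arrays labelled DMSO, which also had the lowest Mgp and Id2 readings. Which part of the transcript the probes read was not given in the sources used here, so the reading does not settle the labels, and each direction below is that of the arrays as labelled.

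BMPs are secreted signals that bind a pair of receptor types, whose kinases phosphorylate Smad1, Smad5 and Smad9. These join Smad4 and enter the nucleus, where they switch on the Id genes, whose proteins bind and block helix-loop-helix transcription factors, and also the genes of their own inhibitors. In fibroblasts and other mesenchymal cells the pathway is best known for steering cells toward cartilage and bone, and extracellular binding proteins limit how much ligand reaches the receptors.

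Promoter windows are shown for Id2, Id3 and Smad6, whose values set the RSL arrays of the clone apart. That of Id4, a further member of the Id family, is shown too. These 4 genes were picked by name, and Mgp and Smad7, which also stood apart, were not among those picked. Of the 9 genes 5 had a window. The windows are shown because Smad proteins are known to act on Id and Smad6 genes through GC-rich elements and CAGAC boxes. The sources used here do not place those elements within the 250 bases shown. Whether Smad proteins bind any match here was not tested. Each window is the 250 bases before the RefSeq start of the gene (build GRCm38.p6), written 5′ to 3′ on the strand of the gene, with motif matches on either strand in capitals. The motifs were GGCGCC and its variant with adenine at the third base, GGAGCC, which are Smad1 and Smad5 elements, and the Smad box CAGAC. They lie at chr12:25096093-25096342 (minus strand) for Id2, chr4:136143572-136143821 (plus) for Id3, chr13:48260866-48261115 (plus) for Id4 and chr9:64022060-64022309 (minus) for Smad6.
Id2: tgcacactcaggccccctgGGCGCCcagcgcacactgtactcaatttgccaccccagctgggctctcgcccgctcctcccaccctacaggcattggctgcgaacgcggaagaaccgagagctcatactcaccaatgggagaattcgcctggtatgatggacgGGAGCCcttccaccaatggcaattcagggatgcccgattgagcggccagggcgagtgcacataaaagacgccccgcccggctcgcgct
Id3: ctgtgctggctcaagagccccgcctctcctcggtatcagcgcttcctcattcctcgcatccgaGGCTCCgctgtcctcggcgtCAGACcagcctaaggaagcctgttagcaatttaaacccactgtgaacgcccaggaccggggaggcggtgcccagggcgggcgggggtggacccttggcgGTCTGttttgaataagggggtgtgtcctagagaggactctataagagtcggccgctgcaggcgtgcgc
Id4: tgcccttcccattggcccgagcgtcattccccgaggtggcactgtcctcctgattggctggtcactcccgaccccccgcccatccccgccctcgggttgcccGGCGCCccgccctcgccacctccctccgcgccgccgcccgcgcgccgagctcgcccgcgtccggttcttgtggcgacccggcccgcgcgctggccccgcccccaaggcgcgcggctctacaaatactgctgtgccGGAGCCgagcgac
Smad6: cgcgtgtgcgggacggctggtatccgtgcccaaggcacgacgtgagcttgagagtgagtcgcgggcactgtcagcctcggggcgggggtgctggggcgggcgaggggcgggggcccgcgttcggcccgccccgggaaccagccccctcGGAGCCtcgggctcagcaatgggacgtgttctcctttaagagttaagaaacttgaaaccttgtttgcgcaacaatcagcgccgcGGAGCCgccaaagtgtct

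The Id2 window holds GGCGCC 231 bases and GGAGCC 88 bases before the start, counted to the first base of the match. In the Id4 window GGCGCC begins 148 bases and GGAGCC 13 bases before it. The Smad6 window has GGAGCC at 102 and 18 bases, and that of Id3 has the reverse complement of GGAGCC at 187 bases and CAGAC boxes at 167 and, as the reverse complement, 68 bases. No match overlapped another in these windows. These are matches of letters only: of 32851 promoter windows of the same length, 9.586% held GGCGCC, 25.97% GGAGCC, 42.19% CAGAC and 60.88% at least 1 of the motifs. The 4 windows had GC contents of 62.8% (Id2 and Id3), 75.6% (Id4) and 66.8% (Smad6), against a median of 52.4%.

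**Figure D1:**
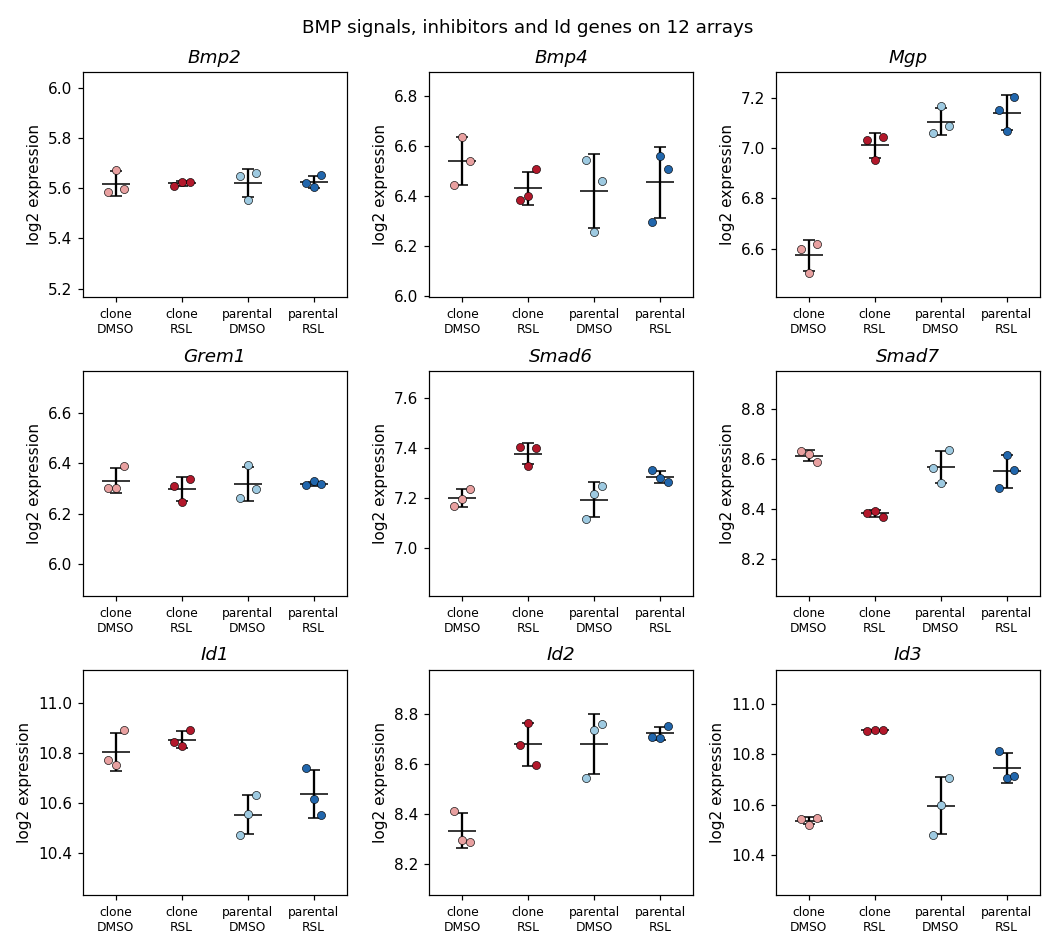
Log2 expression (vertical axis, each panel spanning the same range) of the 9 genes on each of the 12 arrays, by group, with the group mean and SD of 3 arrays as black bars. The clone arrays labelled RSL stand apart from the clone arrays labelled DMSO for Mgp, Smad6, Id2 and Id3 (higher) and Smad7 (lower), and overlap them for the other 4 genes.

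The 2 ligands showed no separation between any groups. Bmp2, which drives bone and cartilage formation, lay below the first quartile on 12 of 12 arrays, between 5.56 and 5.67, a level at which a change could go unread. Its difference between RSL and DMSO was 0.00 in the clone and 0.01 in parental cells (standard error 0.04 in each). Bmp4, a close relative, read 6.44, 6.63 and 6.54 in the clone labelled DMSO and 6.38, 6.40 and 6.51 in the clone labelled RSL. In parental cells it read 6.54, 6.26 and 6.46 with DMSO and 6.29, 6.56 and 6.51 with RSL. The arrays of all 4 groups overlapped, at percentiles 25.97 to 40.16 of their arrays. The difference in the clone was -0.11 (standard error 0.07). The SD was 0.09 with DMSO and 0.07 with RSL in the clone, and 0.15 and 0.14 in parental cells. In parental cells the difference was 0.03 (95% confidence interval -0.12 to 0.19, adjusted p = 0.90 from limma).

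Of the secreted inhibitors, Mgp was higher in 3 of the 4 groups than in the clone labelled DMSO. Its values lay between percentiles 35.64 and 53.07 of their arrays, near or below the middle of all probe sets. Mgp encodes matrix Gla protein, an extracellular protein that binds BMPs and keeps cartilage and arteries from calcifying. It read 6.60, 6.50 and 6.62 in the clone labelled DMSO and 7.03, 6.95 and 7.05 in the clone labelled RSL. In parental cells it read 7.06, 7.17 and 7.09 with DMSO and 7.15, 7.07 and 7.21 with RSL. The clone thus moved from 6.57 ± 0.06 to 7.01 ± 0.05 (SD, n = 3), a difference of 0.44 (standard error 0.04) or 1.36-fold, which left it just under the parental groups at 7.11 ± 0.06 and 7.14 ± 0.07. No such step was seen in parental cells, where the difference was 0.04 (95% confidence interval -0.06 to 0.13, adjusted p = 0.814 from limma).

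Grem1 encodes gremlin 1, which binds BMP2 and BMP4 outside the cell. Its 12 values lay between 6.24 and 6.40, close to the first quartile and below it on 2 arrays, and all groups overlapped. The difference between RSL and DMSO was -0.03 in the clone and 0.00 in parental cells (standard error 0.04 in each, parental adjusted p = 0.998 from limma). Mgp and Grem1, although both bind BMPs, hence had unlike values across the clone arrays.

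The inhibitory Smads went in opposite directions in the clone. Smad6, whose product acts mainly on BMP receptors and Smad1, read 7.17, 7.20 and 7.24 in the clone labelled DMSO and 7.40, 7.33 and 7.40 in the clone labelled RSL. The difference was 0.18 (standard error 0.04). In parental cells the readings were 7.12, 7.22 and 7.25 with DMSO and 7.31, 7.28 and 7.26 with RSL. These also did not overlap, but the difference of 0.09 (95% confidence interval 0.01 to 0.17, unadjusted p = 0.0305) did not pass after adjustment (adjusted p = 0.461 from limma). The RSL effect in the clone exceeded that in parental cells by 0.09 (standard error 0.05).

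Smad7, which blocks the receptors of both BMP and TGF-β, read 8.63, 8.62 and 8.59 in the clone labelled DMSO and 8.38, 8.39 and 8.37 in the clone labelled RSL. All 3 of the latter were also below the 6 parental arrays, which lay between 8.48 and 8.63. The difference was -0.23 (standard error 0.04) in the clone and -0.02 (95% confidence interval -0.10 to 0.07, adjusted p = 0.904 from limma) in parental cells.

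Among the Id genes, Id2 and Id3 were higher in the clone arrays labelled RSL and Id1 was not. Id1 had values of 10.77, 10.75 and 10.89 in the clone labelled DMSO and 10.84, 10.83 and 10.89 in the clone labelled RSL, which overlapped, with a difference of 0.05 (standard error 0.05). Parental cells read 10.47, 10.56 and 10.63 with DMSO and 10.74, 10.62 and 10.55 with RSL, a difference of 0.08 (95% confidence interval -0.03 to 0.19, adjusted p = 0.609 from limma). All 6 clone arrays were above all 6 parental arrays.

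For Id2 the clone labelled DMSO read 8.41, 8.30 and 8.29 and the clone labelled RSL 8.67, 8.76 and 8.59. Parental cells read 8.54, 8.73 and 8.76 with DMSO and 8.71, 8.70 and 8.75 with RSL. Like Mgp, Id2 was low only in the clone labelled DMSO, and the clone arrays labelled RSL overlapped both parental groups. The difference was 0.34 (standard error 0.06) in the clone and 0.04 (95% confidence interval -0.07 to 0.16, adjusted p = 0.820 from limma) in parental cells.

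Id3 had another pattern, being highest in the clone labelled RSL. The clone read 10.54, 10.52 and 10.54 with DMSO and 10.89, 10.90 and 10.90 with RSL, and parental cells 10.48, 10.60 and 10.71 with DMSO and 10.81, 10.71 and 10.72 with RSL. The clone arrays labelled RSL were above all others, and the clone labelled DMSO lay inside the parental DMSO range. The difference was 0.36 (standard error 0.05) in the clone and 0.15 (95% confidence interval 0.05 to 0.25, unadjusted p = 0.00529, adjusted p = 0.366 from limma) in parental cells.

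**Figure D2:**
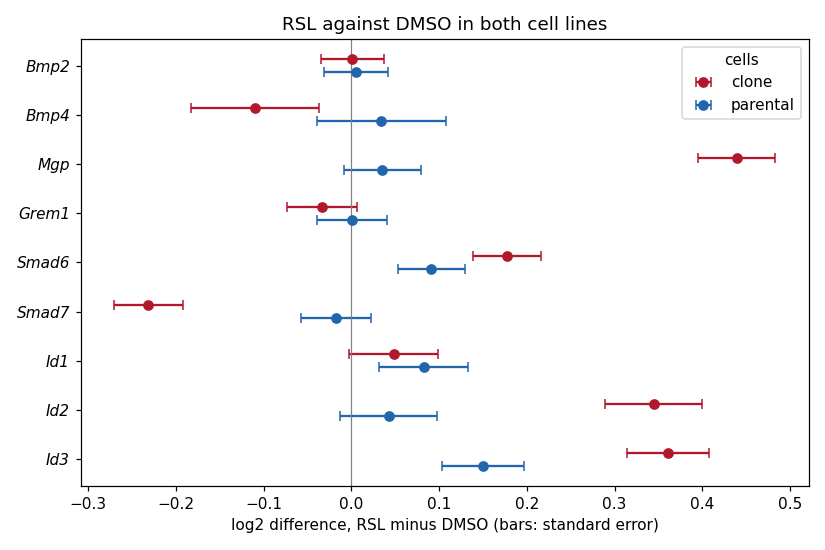
Log2 difference between arrays labelled RSL and DMSO (horizontal axis) for the 9 genes in the clone and in parental cells, with limma's standard errors as bars. Clone values run from -0.23 for Smad7 to 0.44 for Mgp, and parental values from -0.02 for Smad7 to 0.15 for Id3.

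Counted over the 9 genes, clone arrays labelled RSL did not overlap those labelled DMSO for 5, with 4 higher and 1 lower. Of all probe sets 18.1% did not overlap in this contrast, and 2.54% were called at an adjusted p under 0.05. As the genes were chosen with this contrast known, nothing is read from the comparison of these shares. In parental cells 1 of the 9, Smad6, did not overlap, against 13.3% of all probe sets. None of the 9 was called there, where 0.0303% of all probe sets were, and 2 (Smad6 and Id3) had an unadjusted p under 0.05, as 9.71% of all probe sets did. The median difference of the 9 genes was 0.05 in the clone and 0.04 in parental cells, beside 0.00 and 0.01 over all probe sets. The clone median is loosely set: it ran from 0.03, without clone DMSO replicate 1 or 2 or clone RSL replicate 3, to 0.09, without clone DMSO replicate 3, and was 0.26 without the 40% of probe sets lowest in mean level.

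The largest differences between the RSL effects of both cell lines, given without a test, were 0.40 for Mgp (standard error 0.06), 0.30 for Id2 (0.08), 0.21 for Id3 (0.07) and -0.21 for Smad7 (0.06). Those of Bmp2, Grem1 and Id1 lay within 1 standard error of 0.

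The clone and parental cells were next compared over both treatments. Mgp had a lower level in the clone, by a log2 difference of -0.33 (standard error 0.03, limma's adjusted p = 1.8e-07), and all 6 clone arrays were below all 6 parental arrays. Id1 was higher by 0.23 (standard error 0.04, adjusted p = 4.8e-05) in the same test, and Id2 lower by -0.20 (standard error 0.04, adjusted p = 0.00055). For Mgp and Id2 most of this came from the DMSO arrays: the clone differed from parental cells by -0.53 and -0.35 under DMSO and by -0.13 and -0.04 under RSL. Under RSL alone the difference of Id2 was smaller than its standard error of 0.06. Id1 differed alike under DMSO (0.25) and RSL (0.22). The other 6 genes did not pass, with differences between -0.06 (Smad7) and 0.05. For Id3 the mean of both treatments hid opposite signs, -0.06 under DMSO and 0.15 under RSL, as it did for Smad7, at 0.05 and -0.17. These values by treatment share arrays with the contrast that chose the genes and are given as a description. With 3 of 9 called the genes were no more often different than probe sets at large, of which 42.3% were called between the lines. Cell type markers moved in the same test. Of 10 fibroblast markers 6 were higher and 3 lower in the clone, of 8 smooth muscle markers 2 were higher (Acta2 by 0.29 and Tagln by 0.28), and of 7 cartilage and bone markers 1 was lower (Sox9, at -0.22). Of 8 macrophage markers Cd68 was higher, at 0.35, and Csf1r lower, at -0.18, of 8 epithelial markers 2 were higher and 1 lower, and of 8 endothelial markers 1 was lower. The part of these in the differences was not tested. In cultures read as a whole, fewer cells that express a gene and less RNA per cell cannot be told apart.

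Id4 was the member of the Id family with the widest range over these arrays. It encodes the remaining Id protein and was not among the 9 genes, so that all of its contrasts could be tested, although it was listed with earlier results of these arrays known. Id4 read 9.27, 9.28 and 9.36 in the clone labelled DMSO and 9.63, 9.64 and 9.58 in the clone labelled RSL, against 8.45, 8.58 and 8.50 in parental cells with DMSO and 8.41, 8.47 and 8.40 with RSL. It rose in the clone by 0.32 (standard error 0.04, adjusted p = 0.000198 from limma) and was -0.08 in parental cells (adjusted p = 0.504). The one-way analysis that the methods name, run gene by gene with Benjamini-Hochberg adjustment, lost the call in the clone (adjusted p = 0.116) and none of the other settings did. The effects differed by 0.40 (standard error 0.05, adjusted p = 0.00181 from limma), whereas 0.662% of all probe sets were called for such a difference. Id4 was also 1.99-fold higher in the clone than in parental cells over both treatments, a log2 difference of 0.99 (standard error 0.03, adjusted p = 3.2e-14 from limma). Across the family, the clone labelled RSL thus read higher than the clone labelled DMSO for Id2, Id3 and Id4, by 0.32 to 0.36, and by 0.05 for Id1.

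**Figure D3:**
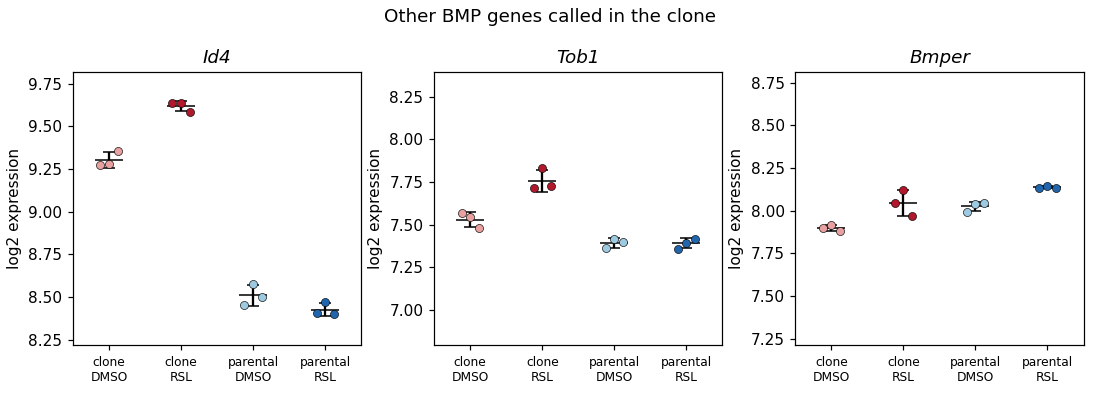
Log2 expression (vertical axis, each panel spanning the same range) of Id4, Tob1 and Bmper on the 12 arrays, by group, with the mean and SD of 3 arrays as black bars. Id4 and Tob1 are highest in the clone labelled RSL and overlap between the parental groups, and Bmper is higher under RSL in both cell lines.

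Of the 55 other BMP genes, 3 rose in the clone arrays labelled RSL (Id4, Tob1 and Bmper) and none fell, with a median difference of 0.01, where 2.54% of all probe sets were called. Another 7, making 10 of 55, had an unadjusted p under 0.05, as 12.3% of all probe sets did. Tob1, an antiproliferative protein that restrains BMP Smads, read 7.57, 7.54 and 7.48 in the clone labelled DMSO and 7.71, 7.83 and 7.73 in the clone labelled RSL. It rose by 0.23 (standard error 0.04, adjusted p = 0.00319 from limma), a call that the methods' one-way analysis lost (adjusted p = 0.219). Parental arrays read 7.36 to 7.42 in both treatments, and the difference between the effects, also 0.23, did not pass (adjusted p = 0.0679 from limma), but did without the lowest 40% of probe sets (0.0405) and with array weights (0.0190).

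Bmper encodes a secreted protein that binds BMPs and can hinder or help their signaling. It read 7.90, 7.92 and 7.88 in the clone labelled DMSO and 8.04, 8.12 and 7.97 in the clone labelled RSL, a rise of 0.14 (standard error 0.04, adjusted p = 0.0470 from limma). Parental arrays read 7.99, 8.04 and 8.04 with DMSO and 8.13, 8.15 and 8.13 with RSL, a difference of 0.11 (adjusted p = 0.376) that also showed no overlap. The call in the clone was lost on leaving out any 1 of 10 arrays, with an adjusted p of up to 0.199, and the effects in the cell lines differed by 0.03 (adjusted p = 0.911).

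By role, none of the 9 further ligands, 11 receptors and co-receptors and 4 Smad signal transducers passed for RSL in the clone, and their differences there lay between -0.12 (Rgma) and 0.11. The 4 transducers, Smad1, Smad5, Smad9 and Smad4, stayed within -0.02 and 0.04. Of 17 secreted antagonists and modulators only Bmper passed, of 6 intracellular inhibitors only Tob1, and of 8 target genes only Id4. In parental cells none of the 55 passed in limma, where 0.0303% of all probe sets did. An unadjusted p under 0.05 was seen for 4 of the 55, against 9.71% of all probe sets. On every array 11 of the 55 lay below the first quartile, among them the ligands Bmp5 and Bmp7 and the antagonist Nog. The share of all probe sets that did so was not counted.

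**Figure D4:**
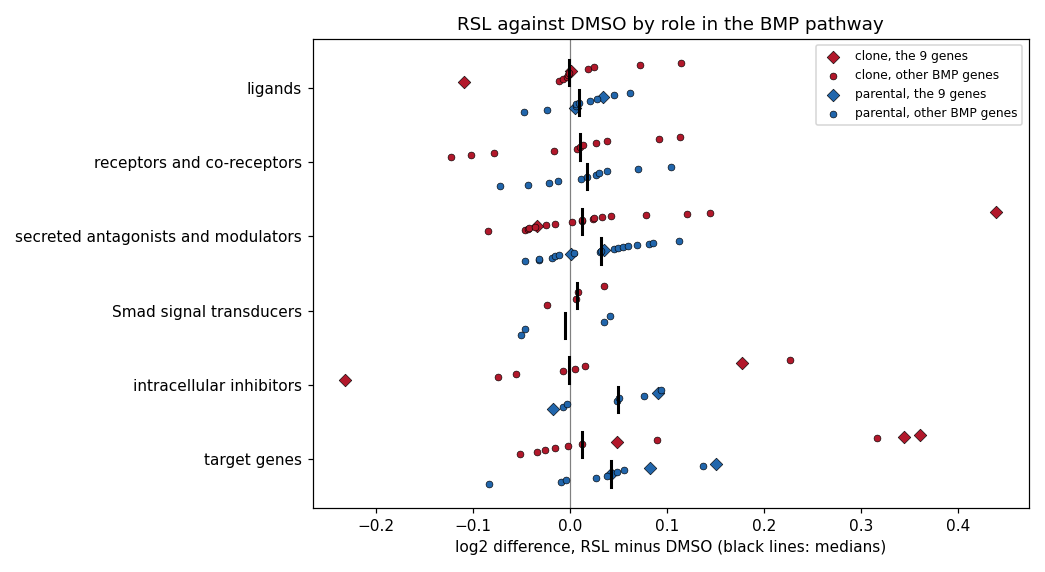
Log2 difference between arrays labelled RSL and DMSO (horizontal axis) of 64 BMP pathway genes by role, in the clone (red) and parental cells (blue), with the 9 genes as diamonds, the other 55 as circles and role medians as black lines. Most genes lie near 0, and the clone values farthest from it are Mgp at 0.44, Id3 at 0.36, Id2 at 0.34, Id4 at 0.32, Smad7 at -0.23 and Tob1 at 0.23.

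Between the clone and parental cells, 21 of the 55 passed, 10 higher and 11 lower in the clone, near the share of all probe sets given above. Secreted antagonists and modulators had the widest range of the roles, from -0.32 to 1.07, while target genes ran from -0.08 to 0.99 (Id4). Fstl1, a follistatin-like protein, was higher by 1.07 (adjusted p = 4.1e-14) and Fst, the activin and BMP binding follistatin, by 0.51 (adjusted p = 8.5e-11), whereas Bmp1, a protease that cleaves procollagen and chordin, was lower by -0.32 and the BMP binding Twsg1 by -0.17. Mgp, at -0.33, thus sat at the lower end of its role. Of the ligands Gdf5, a signal of joint formation, was higher by 0.33, and Bmp10 and Bmp8a were lower by -0.13 and -0.10. The call of Bmp8a was lost on leaving out 1 of the 12 arrays (adjusted p = 0.0563 from limma). It was also lost in 2 of 9 other settings, among them RSL alone (0.294). That of Bmp10 was lost under DMSO alone (0.0708).

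All 3 called receptor genes were higher in the clone: the co-receptor Rgma by 0.23, and the type II receptors Acvr2a by 0.22 and Bmpr2 by 0.11. Smad5 and Smad1, which carry the signal, were lower by -0.15 and -0.12. The 3 called intracellular inhibitors were all higher, Tob1 by 0.25, the decoy receptor Bambi by 0.24 and the ubiquitin ligase Smurf1 by 0.10. Of the target genes, the homeobox genes Msx1 and Msx2 were each lower by -0.07. Both calls were weak, being lost on leaving out any 1 of 8 arrays for Msx1 (adjusted p up to 0.121) and any 1 of 6 for Msx2 (up to 0.118). Each difference between the lines is limma's estimate with an adjusted p under 0.05. Under RSL alone the calls of Smad1 (adjusted p = 0.104 from limma) and Smurf1 (0.101) were lost.

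**Figure D5:**
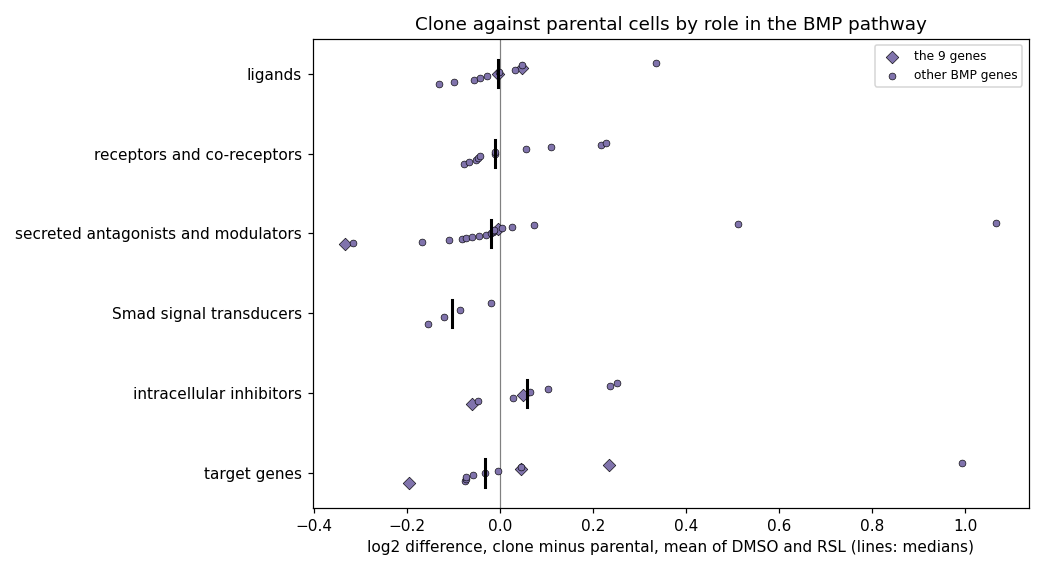
Log2 difference between the clone and parental cells, averaged over DMSO and RSL (horizontal axis), of 64 BMP pathway genes by role, with the 9 genes as diamonds, the other 55 as circles and role medians as black lines. Fstl1 at 1.07 and Id4 at 0.99 lie farthest above 0, and Mgp at -0.33 and Bmp1 at -0.32 farthest below.

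Genes with values most like those of Mgp, Id1 and Grem1 were sought over the 6 clone arrays, as a description that shares arrays and, for Mgp, the step between treatments. For Mgp these were Entpd5, Nr1d2 and Phf13 (Pearson r of 0.99 in each), which over the 6 parental arrays correlated with it at 0.29, -0.59 and 0.36. For Id1 they were Cox19, Pfkfb2 and Mmp8 (0.99 or above), and over the parental arrays 0.12, -0.18 and -0.15. For Grem1, whose clone arrays overlapped, they were Polr2c, 5730455P16Rik and Arl2 (0.99 or above), and over the parental arrays -0.24, -0.24 and -0.01. These genes were picked for the highest correlation over the 6 clone arrays, so the values near 1 there come from the search. A fall in parental cells, here to values of -0.59 to 0.36, can follow from that choice alone. Whether any of them varies with Mgp, Id1 or Grem1 in the clone only was not tested.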

How the data were processed

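RNA of 12 cell samples was read on Affymetrix Mm430_2.0 arrays. The deposited log2 values had been background corrected by RMA and quantile normalized by the authors, using a Custom CDF that groups probes by Entrez gene. Their size fits a log base of 2, and neither the base nor the probe summary is given in the sources. Control probe sets (64) were left out and 16475 tested without a filter, of which 15780 had 1 gene symbol.

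Groups and replicate numbers came from the labels. A model of 4 group means was fitted to all arrays in limma 3.58.1 (R 4.3.3), adjusted by Benjamini-Hochberg over all probe sets, with calls at an adjusted p under 0.05. The replicates are labelled biological, though whether they were separate cultures is not stated, so p-values cover only the spread among these arrays, and the number of arrays limits precision. The members and lists were chosen with earlier results of these data known.

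By rule, the text names the 9 genes, other BMP genes called for RSL or for its difference between cell lines, up to 4 per role called between the lines by size, and the 3 genes most like Mgp, Id1 and Grem1. Smad4, Smad9, Nog, Bmp5, Bmp7 and the markers Acta2, Tagln, Sox9, Cd68 and Csf1r were added with their values known.

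Alternatives tried were blocking on replicate number, dropping the lowest 40% of probe sets, an intensity trend, array weights, median subtraction, repeated quantile normalization, fits to the arrays compared, the methods' one-way analysis, each treatment alone and leaving out each array. The scripts were tested on simulated data.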

Additional observations from a re-analysis of the deposited data

Results flagged for a closer look

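The RSL effect on Id4 differed between the clone and parental cells by 0.40 on the log2 scale (adjusted p = 0.00181 from limma), being 0.32 in the clone and -0.08 in parental cells. All 3 clone arrays labelled RSL were above the 3 labelled DMSO, while the parental arrays overlapped. The same difference was not tested for the 9 genes, because they were chosen with the response of the clone known, and groups of 3 arrays are too small to look for single outlying arrays.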

How the results depend on the processing

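Replicate numbers were not used as pairs in the main fit, and the labels do not say whether they pair the cultures. Deviations of same-numbered arrays from their group means correlated at -0.27 to 0.21, which does not settle it. With a replicate block, 2 other BMP genes were called for RSL in the clone (Bmper was lost, adjusted p = 0.0697), and Msx1 was lost between the lines. Calls among the 55 other BMP genes for RSL in the clone, 3 as reported, were 0 (Id4, Tob1 and Bmper all lost) in the methods' one-way analysis after Benjamini-Hochberg, where 1 of all probe sets was called against 418, and 8 at a nominal p. That count was 3 in parental cells at a nominal p, and for the difference of effects, 1 as reported, it was 2 without the lowest 40% of probe sets, 2 with array weights and 3 at a nominal p. Over settings other than leaving out 1 array, calls among all 16475 probe sets reached 1913 for RSL in the clone. They reached 1226 for RSL in parental cells and 1473 for the difference of effects. Without the lowest 40% the median clone difference of the members that remained was 0.26, and with 1 array left out that of all 9 was 0.0286 to 0.0915. Calls over all probe sets for RSL in the clone were 204 to 457 with 1 array left out.

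Small differences that were not called changed sign. In parental cells Bmp2 was -0.0132 with array weights, -0.0034 with medians subtracted and -0.0039 after repeated quantile normalization; Grem1 was -0.0077 and -0.0253 in the last 2 of these, and Id2 -0.0103 with array weights. With 1 array left out the parental ranges were -0.0277 to 0.0248 (Bmp2), -0.0477 to 0.1139 (Bmp4), -0.0274 to 0.0392 (Grem1), -0.0494 to 0.0165 (Smad7) and -0.0258 to 0.0825 (Id2). Between the lines Bmp2 and Grem1 were 0.0076 and 0.0128 after repeated quantile normalization, and -0.0203 to 0.0059 and -0.0191 to 0.0148 with 1 array left out. Under DMSO alone Grem1 was 0.0128, Smad7 0.0460 and Id3 -0.0597, and under RSL alone Bmp4 was -0.0247. Smad7 passed between the lines with array weights (adjusted p = 0.0350 from limma) and without parental DMSO replicate 2 (0.0364) or parental RSL replicate 1 (0.0344). Under RSL alone, which rests on clone arrays used in choosing the genes, Smad7 was -0.17, Id3 0.15 and Id2 -0.04, a description without a test. The cause was not tested.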
